A study of Mus musculus with 3 samples.

Results

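The Fc receptor genes described here are Fcgr1, Fcgr2b, Fcgr3, Fcgr4, Fcer1g and Fcgrt, 6 genes chosen by name and found by NCBI Gene ID among the 16742 genes listed in any library of a mouse RNA-seq series. All 6 were listed in all 3 libraries, and all 6 had at least 10 expected counts in a library. The study introduced TBLR1-RARα (TR), a fusion gene of acute promyelocytic leukemia (APL), into mouse bone marrow (BM) cells and compared the resulting leukemia cells with normal BM cells. The control library held lin- BM cells, from which cells with mature lineage markers had been removed, of C57BL/6 mice of wild type genotype. Those of TR1 and TR9 held sorted GFP+ BM cells of C57BL/6 mice labelled TBLR1-RARa, from the third generation of serially transplanted TR leukemia. Each library pooled 3 mice with a labelled age of 6 to 8 weeks, and there was 1 library per condition.

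By the study's methods, TR was carried by a retrovirus into lin- cells, and GFP marked the infected cells. TR1 and TR9 each descended from 1 primary mouse, so each stands for 1 leukemia passed through recipients that were not irradiated and kept their own marrow. Control cells were obtained by lineage depletion and were not sorted for GFP. The way of isolation and the condition therefore cannot be told apart. In bulk RNA, fewer cells of a type and less RNA per cell cannot be told apart either.

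Fc receptors bind the constant part of antibodies and link them to the cells of innate immunity. In the mouse, Fcgr1, Fcgr3 and Fcgr4 encode activating receptors for IgG. They signal through the common FcR gamma chain encoded by Fcer1g, whose cytoplasmic tail holds an immunoreceptor tyrosine-based activation motif (ITAM). Fcgr2b encodes the inhibitory IgG receptor, which carries an inhibitory motif (ITIM) in its own tail and recruits phosphatases. It is found on B cells as well as on myeloid cells. Fcgrt encodes the heavy chain of the neonatal Fc receptor, which pairs with β2-microglobulin and returns IgG and albumin from endosomes to the cell surface.

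The activating and inhibitory motifs are shown because they set the roles of the genes. Both stretches come from coding sequences of GENCODE M21 on GRCm38, and positions are counted from the first base of the start codon. Capitals mark the tyrosine codons of the motifs. The Fcer1g stretch spans coding positions 193 to 237, and the Fcgr2b stretch spans positions 799 to 834 of its shorter transcript.
Fcer1g ITAM: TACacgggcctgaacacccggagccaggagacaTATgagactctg
Fcgr2b ITIM: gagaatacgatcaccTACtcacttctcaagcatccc
The ITAM pattern was found in 622 of 21549 coding genes (2.89%) and, among the 5 receptor genes searched, in Fcer1g. The short ITIM pattern was found in 10572 of the coding genes (49.1%). It also matched Fcgr1, Fcgr4 and Fcer1g besides Fcgr2b, so a match on its own carries little information.

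Fcgr2b and Fcgr3 share long stretches of nearly identical coding sequence for their extracellular part, which bears on how reads were divided between them. Over 475 aligned bases, 462 were identical (97.3%). The longest stretch with a single difference was 243 bases, at coding positions 278 to 520 of Fcgr2b and 263 to 505 of Fcgr3. The base that differs is in capitals.
Fcgr2b shared stretch: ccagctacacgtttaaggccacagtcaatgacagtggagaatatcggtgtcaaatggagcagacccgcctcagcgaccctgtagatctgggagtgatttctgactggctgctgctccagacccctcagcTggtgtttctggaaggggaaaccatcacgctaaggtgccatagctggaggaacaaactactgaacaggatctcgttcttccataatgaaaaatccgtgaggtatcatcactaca
Fcgr3 shared stretch: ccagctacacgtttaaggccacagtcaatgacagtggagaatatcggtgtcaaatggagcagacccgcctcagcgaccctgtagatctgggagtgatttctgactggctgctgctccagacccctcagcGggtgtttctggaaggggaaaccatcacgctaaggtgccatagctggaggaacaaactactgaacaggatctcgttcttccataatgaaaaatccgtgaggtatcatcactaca
Of all 50-base words, 166 of 1413 in the Fcgr2b transcript (11.8%) and 166 of 1298 in the Fcgr3 transcript (12.8%) were found in the other. No such word was shared between any other pair among these genes and Fcgr4, Fcgr1 and Fcer1g.

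The libraries were of similar depth. Expected counts, estimated by RSEM and so not always whole, summed to between 5129662 and 5571409, and between 14642 and 15302 genes were listed per library. Levels are given as FPKM, which is scaled for transcript length and library total, so that genes can be compared. A log2 ratio compares the FPKM of one library with another after values under 0.01 were set to 0.01. A gene was called when a Poisson test of its counts reached a false discovery rate no higher than 0.001 with an absolute log2 ratio of 1 or more. This test compares the reads of the libraries, not the conditions, and no difference has a replicate check. Intervals are 95% and cover counting error only. Markers of the labelled cell types were present: the stem and progenitor list, which includes Kit and Cd34, summed to 726 CPM (counts scaled to a fixed library total) in control, 195 in TR1 and 436 in TR9.

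Fcer1g, Fcgr3 and Fcgr2b were the abundant Fc receptor genes in all 3 libraries, and Fcgr1 and Fcgr4 were scarce in all of them. In control the order was Fcer1g, Fcgr3, Fcgr2b, Fcgrt, Fcgr4 and Fcgr1, and the intervals of the last pair overlapped. In TR1 the order was Fcer1g, Fcgr3, Fcgr2b, Fcgr4, Fcgr1 and Fcgrt. There the intervals of Fcgr4 and Fcgr1 overlapped, as did those of Fcgr1 and Fcgrt. In TR9 the order was as in control, and the intervals of Fcgrt, Fcgr4 and Fcgr1 overlapped from neighbour to neighbour.

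**Figure D1:**
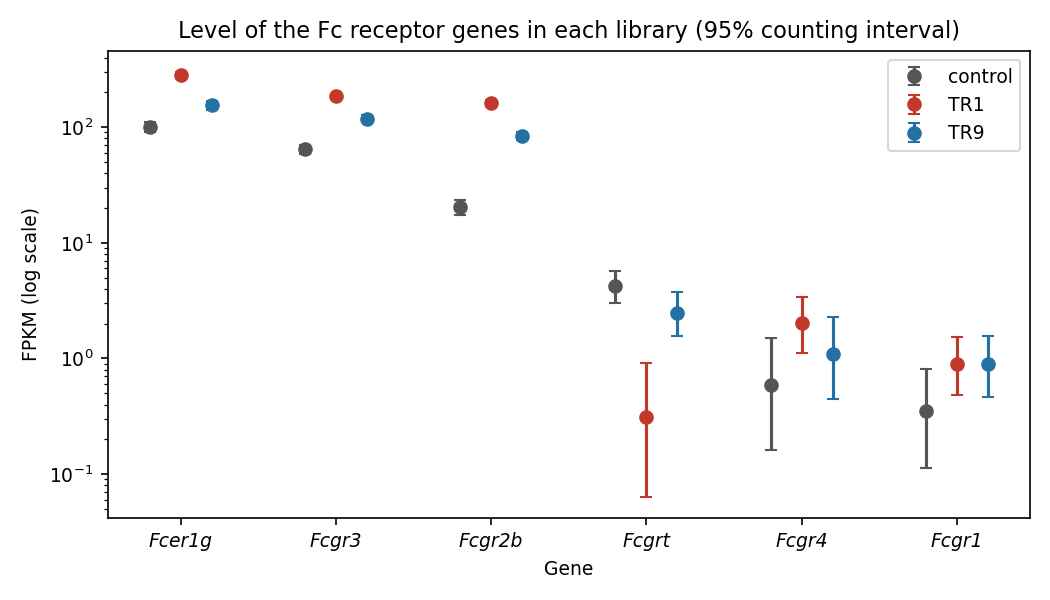
Level of each Fc receptor gene in the control, TR1 and TR9 libraries, in FPKM on a log axis, with 95% intervals that cover counting error only. Each point is 1 library. Fcgr2b, Fcgr3 and Fcer1g were highest in TR1 and lowest in control, and Fcgrt was lowest in TR1, at 0.31 FPKM.

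Against control, 3 of the 6 genes rose in TR1, namely Fcgr2b, Fcgr3 and Fcer1g, and Fcgrt fell. Among all genes tested in that comparison, 8.09% were called higher and 13% lower. In TR9, Fcgr2b rose and none of the 6 was called lower, against 9.37% called higher and 10.8% called lower among all genes. Fcgr2b was therefore the single member called in the same direction in both lines, where 5.67% of all genes were called higher and 8.39% lower in both. Both comparisons use the same control library, so they are not independent. When a biological variation of 0.2 was assumed in edgeR, Fcgr2b was still called in both lines and Fcgrt in TR1, while Fcgr3 and Fcer1g were not, and with 0.4 none of the 6 was called.

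**Figure D2:**
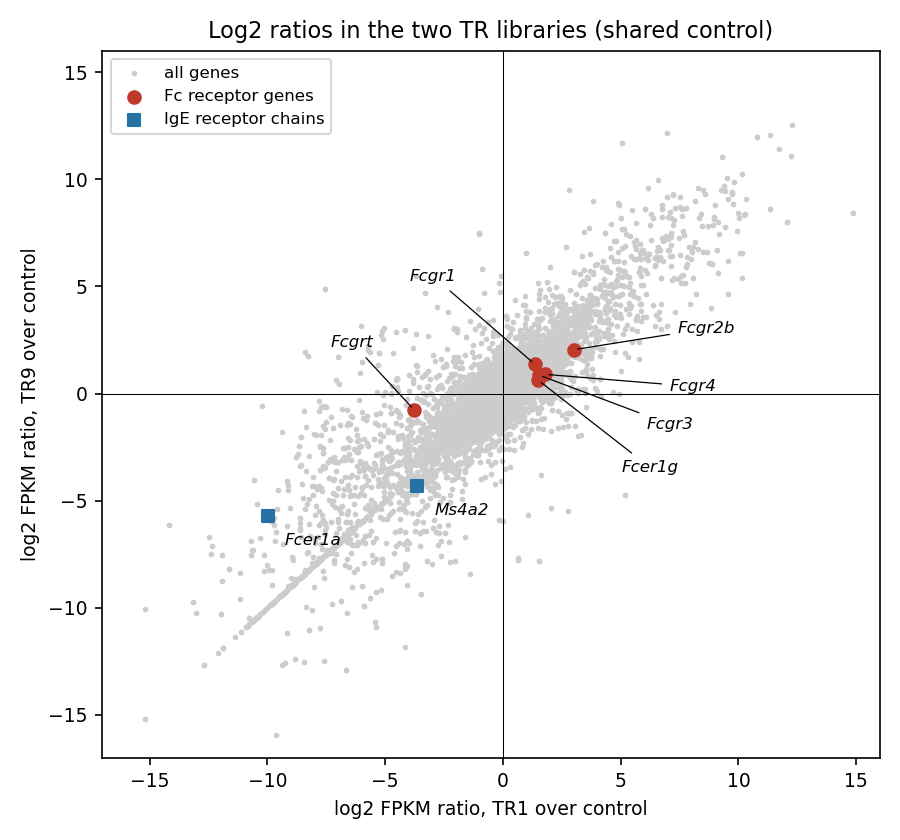
Log2 FPKM ratio of each gene in TR1 (horizontal axis) and TR9 (vertical axis) over the shared control library, for genes with at least 10 expected counts in a library. Red circles are the Fc receptor genes and blue squares the IgE receptor chains Fcer1a and Ms4a2. Fcgr2b lies furthest to the upper right of the Fc receptor genes, at 3.00 and 2.05, and Fcgrt lies on the left, at -3.76 and -0.76.

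Fcgr2b (Gene ID 14130, chromosome 1), the inhibitory receptor, was at 20.3 FPKM (17.3 to 23.6) in control, 163 (154 to 172) in TR1 and 83.7 (77.3 to 90.6) in TR9. No intervals overlapped. The log2 ratio over control was 3.00 (2.77 to 3.25) in TR1, which is 8.03-fold, and 2.05 (1.80 to 2.30) in TR9, which is 4.13-fold. By log2 ratio it ranked 467 of 12378 genes with at least 10 counts in TR1 or control, and 809 of 12436 in TR9 or control.

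Fcgr3 (Gene ID 14131, chromosome 1), the low-affinity activating IgG receptor, was at 64.5 FPKM (58.8 to 70.5) in control, 184 (175 to 194) in TR1 and 118 (110 to 126) in TR9. It rose in TR1 by a log2 ratio of 1.52 (1.36 to 1.67). In TR9 the log2 ratio was 0.87 (0.71 to 1.04), which was outside counting error but under the size required for a call.

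Because of the shared sequence, the counts of Fcgr2b and Fcgr3 rest in part on how RSEM divided reads between them. Neither gene had a whole count in any library, at 168.35 and 473.65 in control, while the sums of the pair were whole in all of them. The control, TR1 and TR9 sums were 642, 2699 and 1434. This sum does not depend on how reads were divided within the pair. As CPM, its log2 ratio over control was 2.05 (1.93 to 2.18) in TR1 and 1.26 (1.12 to 1.39) in TR9.

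The balance within the pair also differed between libraries. Fcgr2b took 26.2% (22.8 to 29.8) of the summed counts in control, 48.9% (47.0 to 50.8) in TR1 and 43.5% (40.9 to 46.1) of those of TR9, with exact binomial intervals that do not cover the division of reads. The control interval overlapped neither of the others. Of the summed FPKM of the 4 Fcgr genes, Fcgr2b made up 23.7% in control, 46.5% in TR1 and 41.1% in TR9. Fcgr3 made up 75.3%, 52.7% and 57.9% in the same order, and Fcgr1 and Fcgr4 together between 0.837% and 1.10%. The ratio of activating Fcgr3 to inhibitory Fcgr2b FPKM was 3.18 for control, 1.13 for TR1 and 1.41 for TR9.

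**Figure D3:**
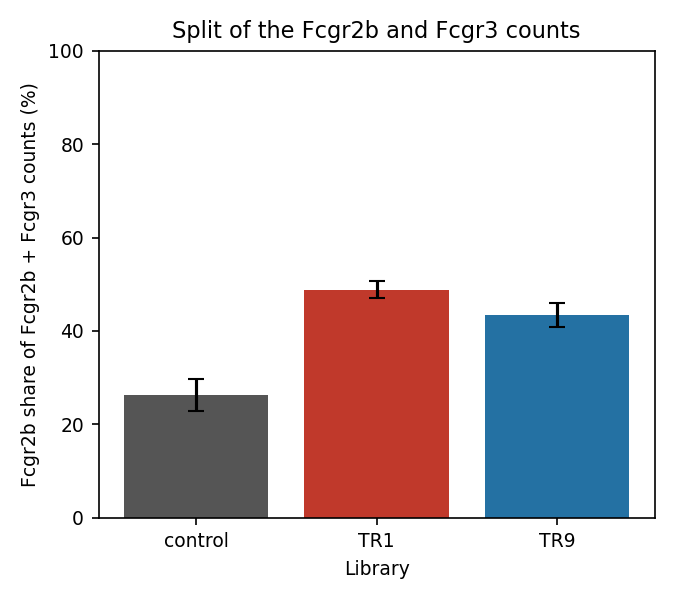
Share of the inhibitory receptor gene Fcgr2b in the summed expected counts of Fcgr2b and its close relative Fcgr3, in percent. Each bar is 1 library with its 95% exact binomial interval, which covers counting error only, and the share was 26.2% for control, 48.9% for TR1 and 43.5% for TR9.

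The gene length listed for Fcgr2b, which RSEM averages over its transcripts by abundance, also differed. It was 1525.1 bases in control, 1464.6 in TR1 and 1461.9 in TR9, which is -3.97% and -4.14% against control. Among 1729 genes with more than 1 transcript and at least 100 counts in every library, 20 (1.16%) fell by as much in both lines, and 64 (3.70%) moved by as much in both lines in either direction. In GENCODE M21 the shorter Fcgr2b transcript has 1462 bases and a coding length of 879. The longer has 3544 bases and a coding length of 1020, and it differs in coding sequence by an insert of 141 bases in the cytoplasmic tail, at coding positions 758 to 898. The form with the insert is known mainly from B cells and the form without it from myeloid cells. The insert is shown because it is the coding difference between these forms.
Fcgr2b coding insert: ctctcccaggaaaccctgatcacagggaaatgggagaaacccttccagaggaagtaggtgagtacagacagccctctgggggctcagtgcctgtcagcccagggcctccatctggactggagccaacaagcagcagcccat
The lengths that the authors' annotation gave each transcript were not used here, so no share of the forms was computed.

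Markers of B cells, which express Fcgr2b, were examined in the same libraries. Cd79a, Cd79b, Ms4a1 and Pax5 were at 0 in TR1 and in TR9, where 3 counts correspond to 0.538 and 0.585 CPM. Pax5 was at 0 in control too, which had 69 counts of Cd79b. The whole B lineage list summed to 15.9 CPM for control, 13.8 for TR1 and 169 for TR9. Igll1, part of the pre-B cell receptor, had 2, 63 and 847 counts in control, TR1 and TR9 and was called higher in both lines. Vpreb1, another part of it, had 1, 14 and 20 and was called higher in TR9.

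Fcer1g (Gene ID 14127, chromosome 1), the ITAM-bearing gamma chain, was the most abundant member in every library. It was at 100 FPKM (90.2 to 111) in control, 283 (266 to 300.2) in TR1 and 155 (142 to 169) in TR9. It rose in TR1 by a log2 ratio of 1.49 (1.32 to 1.67). In TR9 the log2 ratio was 0.63 (0.43 to 0.83), and it was not called. The ratio of Fcer1g FPKM to the summed FPKM of the activating receptors Fcgr1, Fcgr3 and Fcgr4 was 1.53 in control, 1.51 in TR1 and 1.29 in TR9.

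Fcgr1 and Fcgr4 were near the limit of what this depth can show. Fcgr1 (Gene ID 14129, chromosome 3), the high-affinity IgG receptor of monocytes and macrophages, had 5, 13 and 12 counts in the control, TR1 and TR9 libraries. Fcgr4 (Gene ID 246256, chromosome 1), another activating receptor, had 4, 14 and 7. The log2 ratio of Fcgr1 over control was 1.36 in both lines, with intervals of -0.22 to 3.20 in TR1 and -0.25 to 3.22 in TR9. That of Fcgr4 was 1.78 (0.11 to 3.84) in TR1 and 0.90 (-1.08 to 3.12) in TR9. None of these was called, and the wide intervals hold both no difference and several-fold differences in all but the comparison of Fcgr4 in TR1.

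Fcgrt (Gene ID 14132, chromosome 7), the neonatal Fc receptor, was the member that fell. The control, TR1 and TR9 libraries had 40, 3 and 22 counts of it, or 4.21 FPKM (3.01 to 5.73), 0.31 (0.064 to 0.906) and 2.48 (1.55 to 3.75). The TR1 level lay under both others, and the intervals of control and TR9 overlapped. The log2 ratio over control was -3.76 (-6.10 to -2.11) in TR1, which was called, and -0.76 (-1.58 to 0.02) in TR9, which was not. B2m, which encodes its partner β2-microglobulin and that of MHC class I, rose in TR1, from 1536 FPKM in control to 3239 (log2 ratio 1.08, 1.04 to 1.12). In TR9 it was at 2337 (log2 ratio 0.61, 0.56 to 0.65).

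Markers of other cells also differed between the libraries. The late granulocyte list summed to 85.1 CPM in control, 10003 in TR1 and 5989 in TR9. All 9 of its genes rose in TR1 and 6 of 9 in TR9, against 8.09% and 9.37% of all genes. Its genes did not share one order of the TR libraries. In TR9 against TR1, 5 were called lower, among them S100a8 (16553 counts in TR1, 4486 in TR9) and S100a9 (33021 and 4185), which held most of the TR1 sum. The other 2 called, Camp (1165 and 4842) and Ngp (3696 and 16860), were higher. The monocyte and macrophage list summed to 322, 304 and 147. In that list 3 of 12 genes rose and 8 fell in TR1, against 8.09% and 13% of all genes. In TR9, 1 rose and 9 fell, against 9.37% and 10.8%. C1qc, of the same list, was at 0 in TR1. The part of these cells in the levels of the Fc receptor genes was not tested.

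The lines were also compared directly. In TR9 against TR1, 1 of the 6 genes was called, Fcgrt, which was higher in TR9 by a log2 ratio of 3.00 (1.27 to 5.38). With 3 counts in TR1, this call was lost with an assumed variation of 0.2 or 0.4. Among all genes, 4.34% were called higher and 2.31% lower in TR9. The abundant members were lower in TR9 outside counting error and not called, with log2 ratios of -0.96 (-1.10 to -0.82) for Fcgr2b, -0.86 (-1.02 to -0.71) for Fcer1g and -0.65 (-0.77 to -0.52) for Fcgr3. Fcgr2b was called lower when libraries were scaled by TMM, at -1.09, by the median of ratios, at -1.08, or by the upper quartile, at -1.06. The summed pair of Fcgr2b and Fcgr3 gave -0.79 (-0.89 to -0.70). The log2 ratio was -0.88 (-2.43 to 0.52) for Fcgr4 and 0 (-1.26 to 1.25) for Fcgr1.

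Changes are relative to a center that scaling moves. Over all genes, the median log2 ratio of TR1 against control was -0.29, that of TR9 against control -0.12 and that of TR9 against TR1 0.13. TMM scaling added 0.25, 0.11 and -0.13 to these ratios, and TPM scaling moved them the other way, by -0.23, -0.11 and 0.12. No member with a ratio other than 0 changed its direction under any of these scalings, and the ratio of Fcgr1 in TR9 against TR1 was 0.

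The genes with the most similar levels over the 3 libraries were found by the distance between log2 FPKM values. Those nearest to Fcgr2b were Hvcn1 (distance 0.233), a voltage-gated proton channel of phagocytes and B cells, and Csf3r (0.242), the G-CSF receptor. Csf3r was at 19.4, 175 and 96.9 FPKM in control, TR1 and TR9. The nearest to Fcgr3 were Cyba (0.439), a subunit of the phagocyte NADPH oxidase, and Dbi (0.459). Fcer1g was nearest to Rac2 (0.330), a hematopoietic small GTPase, and Ssr4 (0.415).

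For the less abundant members, the nearest genes were also low. They were Pear1 (0.603) and Lipo3 (0.608) for Fcgrt, Prkcz (0.150) and Nr6a1 (0.216) for Fcgr1, and 2010016I18Rik (0.169) and Btbd8 (0.215) for Fcgr4. With 3 libraries, such a likeness is a description of levels.

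Of the 75 genes of Fc receptor pathways, in lists by role, 74 were listed in a library. In TR1, 13 of 73 tested were called higher (17.8%) and 9 lower (12.3%), against the 8.09% and 13% of all genes. The TR1 counts were 17 higher and 8 lower with TMM scaling, and 10 and 10 with TPM scaling. In TR9, 7 of 72 were called higher (9.72%) and 11 lower (15.3%), or 4 higher and 12 lower with TPM scaling. In both lines, 5 rose and 7 fell, which is 6.76% and 9.46% of the 74 and near the share of all genes. The median log2 ratio of the lists was 0.19 in TR1 and -0.09 in TR9. Over the 63 genes with at least 10 counts, with genes at 0 in a library set to the limit that 3 counts allow, the medians were 0.19 and -0.09 as well.

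**Figure D4:**
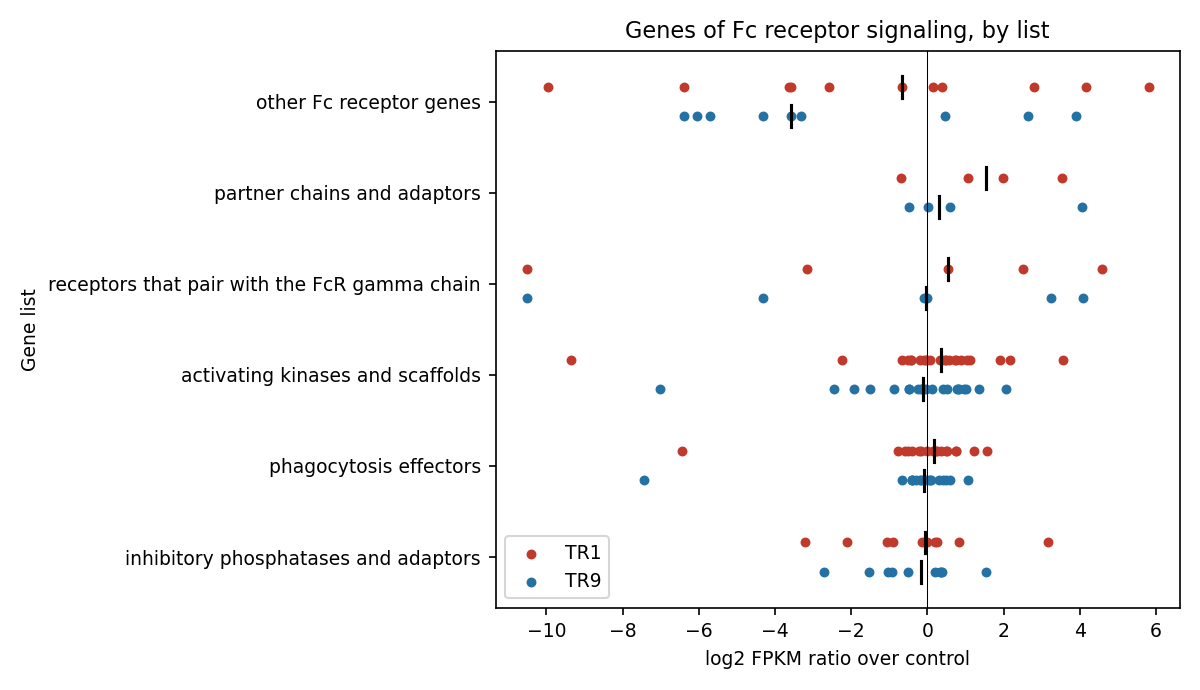
Log2 FPKM ratio over control of each listed gene of the Fc receptor pathways, by list, in TR1 (red) and TR9 (blue). Black bars are the list medians, which for partner chains and adaptors were 1.53 in TR1 and 0.32 in TR9, and points beyond -5 or above 5 rest on libraries at or near 0 counts.

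Among other Fc receptor genes, 2 of 11 fell in both lines, against 8.39% of all genes. Both encode chains of the IgE receptor that pair with Fcer1g. Fcer1a, the IgE-binding alpha chain, had counts of 55, 0 and 1 in the control, TR1 and TR9 libraries. The TR1 value was at least 18.6-fold lower, and the TR9 log2 ratio was -5.71 (-11.0 to -3.17). Ms4a2, the beta chain, had 651, 54 and 29 counts, with log2 ratios of -3.63 (-4.06 to -3.23) and -4.32 (-4.91 to -3.78). Fcer1g, the chain that they share with the IgG receptors, had 362, 1038 and 524 counts in the same libraries.

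Markers of mast cells and basophils, which carry the IgE receptor, were lower too. Their list summed to 1221 CPM for control, 101 for TR1 and 91.6 for TR9. In both lines, 5 of 6 listed genes fell, against 8.39% of all genes. Cma1 was at 0 in both TR libraries and Tpsb2 in all 3. The part of these cells in the levels of Fcer1a, Ms4a2 and Fcer1g was not tested. None of the other Fc receptor genes was called against control. Trim21, a cytosolic antibody receptor, had 125, 80 and 157 counts and was called higher in TR9 against TR1 (log2 ratio 1.13), a call that TMM scaling took just under the threshold.

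Of the 4 partner chains and adaptors, 3 rose in TR1 and 1 in TR9, against 8.09% and 9.37% of all genes. Tyrobp, which encodes the ITAM adaptor DAP12, had 211, 847 and 201 counts across the control, TR1 and TR9 libraries. It rose in TR1 by a log2 ratio of 1.98 (1.76 to 2.20), was at 0.03 (-0.26 to 0.31) in TR9 and was called lower in TR9 against TR1, at -1.95 (-2.18 to -1.73). Hcst, which encodes the adaptor DAP10, had 4, 47 and 62 counts and rose in both, by 3.53 (2.08 to 5.47) and 4.05 (2.62 to 5.97).

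Of the 6 receptors that pair with the FcR gamma chain, the C-type lectin receptor Clec4d rose in both lines. The platelet collagen receptor Gp6 fell in both. Among all genes, 5.67% were called higher and 8.39% lower in both. Clec4d had 17, 416 and 150 counts, with log2 ratios of 4.58 (3.89 to 5.38) and 3.23 (2.51 to 4.05). Gp6 was counted 91 times in control and never in TR1 or TR9, or at least 30.8-fold lower in the former and at least 28.3-fold lower in the latter. Erythroid and megakaryocyte markers fell with it, from 2405 CPM in control to 9.20 in TR1 and 6.17 in TR9. In both lines, 7 of 7 of these genes were called lower, against 8.39% of all genes. The part of such cells in the level of Gp6 was not tested. Clec4e was called higher in TR1, at 2.51, and not called in TR9, at -0.10. In TR9 against TR1, 2 of the 5 receptors tested were called lower, against 2.31% of all genes. They were Clec4d and Clec4e, at -1.35 and -2.60.

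Of the 24 activating kinases and scaffolds, 5 rose and 2 fell in TR1, and 3 rose and 4 fell in TR9. The shares called among all genes were 8.09% higher and 13% lower in TR1, and 9.37% and 10.8% in TR9. Syk, the kinase that binds phosphorylated ITAMs, had 1256, 1109 and 1060 counts, with log2 ratios of -0.21 (-0.32 to -0.09) and -0.15 (-0.27 to -0.03), neither of which was called. Fgr, a myeloid Src family kinase, rose from 20 to 239 and 48 counts (3.55 and 1.36). Card9, an adaptor downstream of Syk, rose from 172 to 652 and 668 (1.90 and 2.05). Src counts were 139, 0 and 1, which is at least 47.0-fold lower for TR1 and a log2 ratio of -7.02 (-12.3 to -4.52) in TR9. Vav2, a guanine nucleotide exchange factor, fell from 69 counts to 15 and 17 (-2.23 and -1.93).

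The direct comparison of the lines showed 5 genes of this list called lower in TR9 and none called higher. Among them were the Src family kinases Fyn and Fgr, the latter at -2.20, and the adaptors Lat and Lat2. Over all lists, 2 of 71 genes were called higher (2.82%) and 11 lower (15.5%) in TR9 against TR1, where 4.34% and 2.31% of all genes were. The median log2 ratio of the lists was -0.16 there, and 0.13 over all genes.

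Of the 19 phagocytosis effectors, Rac2 rose in both lines, and Myo10, an unconventional myosin of filopodia, fell in both. Each is 5.26% of the list, near or under the 5.67% of all genes called higher and 8.39% called lower in both. Rac2 was also the nearest gene to Fcer1g. Rac2 had 1540, 4638 and 2994 counts, with log2 ratios of 1.57 (1.48 to 1.65) and 1.06 (0.97 to 1.14). Its counts were not whole, so some of its reads were shared with other genes. Myo10 had 155, 2 and 1 counts, with log2 ratios of -6.43 (-9.49 to -4.55) and -7.43 (-12.7 to -4.93). Coro1a, an actin regulator of leukocytes, rose in TR1 by a log2 ratio of 1.23 and was not called in TR9, at -0.68. It was called lower in TR9 against TR1, at -1.90.

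The list of inhibitory phosphatases and adaptors gave 1 gene that rose and 3 that fell among 10 in each line. Among all genes, 8.09% were called higher and 13% lower in TR1, and 9.37% and 10.8% in TR9. Inpp5d, which encodes the phosphatase SHIP1 that binds the Fcgr2b ITIM, had 1245, 1448 and 1458 counts, with log2 ratios of 0.20 (0.09 to 0.31) and 0.34 (0.23 to 0.45). Ptpn6, which encodes the phosphatase SHP-1, had 941, 953 and 619, with ratios of -0.01 (-0.14 to 0.12) and -0.51 (-0.66 to -0.36). None of these was called. Dok2, an adaptor that restrains tyrosine kinase signaling, fell in both, from 119 counts to 13 and 17 (-3.22 and -2.71).

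In TR9 against TR1, Pirb, an ITIM-bearing receptor whose reads were partly shared with other genes, was called lower, at -2.98 (-3.37 to -2.60). Pag1, a membrane adaptor, was called lower too, at -1.78. Inppl1, which encodes the phosphatase SHIP2, was called higher, at 3.64 (2.71 to 4.73).

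Fcgr2b, Fcgr4, Fcgr3 and Fcer1g lie close together on chromosome 1. Of 25 listed coding genes within 200 kb of them, none was called higher in TR1 or in TR9, while 5 were called lower in TR1 and 2 in TR9. Over all genes, 8.09% were called higher and 13% lower in TR1, and 9.37% and 10.8% in TR9. Around Fcgr1 on chromosome 3, 16 coding genes were listed, with 0 called higher and 1 lower in TR1 and none called in TR9. Around Fcgrt on chromosome 7, 25 were listed, with none called higher and 5 called lower in each line, where 13% of all genes were called lower in TR1 and 10.8% in TR9.

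The promoters of the 3 abundant members are shown because these genes rose in TR1. Each is the 250 bases before the RefSeq start on GRCm38.p6, and all 6 members matched the RefSeq promoter table. Both strands were searched for GAGGAA, the core of PU.1 sites, for TTCNNNGAA, the site form of STAT factors, and for TTGCNNAA, the site form of C/EBP factors. Capitals mark the matches, which did not overlap.
Fcgr2b promoter, chr1:170976072-170976321, minus strand: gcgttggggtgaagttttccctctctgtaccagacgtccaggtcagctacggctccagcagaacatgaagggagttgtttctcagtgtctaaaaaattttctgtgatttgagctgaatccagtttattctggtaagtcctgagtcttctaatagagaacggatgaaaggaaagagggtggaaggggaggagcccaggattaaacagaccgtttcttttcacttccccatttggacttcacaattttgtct
Fcgr3 promoter, chr1:171059404-171059653, minus strand: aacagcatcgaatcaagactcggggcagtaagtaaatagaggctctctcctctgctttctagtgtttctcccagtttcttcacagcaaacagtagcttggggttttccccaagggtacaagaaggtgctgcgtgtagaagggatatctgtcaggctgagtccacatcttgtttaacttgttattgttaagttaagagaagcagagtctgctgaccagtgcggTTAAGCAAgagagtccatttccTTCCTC
Fcer1g promoter, chr1:171234350-171234599, minus strand: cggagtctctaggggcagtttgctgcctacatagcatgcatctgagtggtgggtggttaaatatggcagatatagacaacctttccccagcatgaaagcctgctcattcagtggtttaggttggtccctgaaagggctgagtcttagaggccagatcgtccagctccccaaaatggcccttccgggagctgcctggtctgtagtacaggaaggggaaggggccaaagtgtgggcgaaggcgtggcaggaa
Fcgr3 held GAGGAA, 6 bases before the start, and TTGCNNAA, 28 bases before it, both on the other strand. Fcgr2b and Fcer1g held none of these letters in this window. Among the other members, Fcgr1 held GAGGAA at 55 and TTCNNNGAA at 109 bases before the start, Fcgr4 held GAGGAA at 22, and Fcgrt held TTGCNNAA at 239. These were on the other strand too, except TTCNNNGAA, a form that reads the same on both strands. Over 27025 promoters of the same length, GAGGAA was found in 23.1%, TTCNNNGAA in 7.18% and TTGCNNAA in 9.55%. A match is a description of the letters and not of binding.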

How the data were processed

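RNA-seq of 3 libraries was analysed, with groups taken from the sample labels. The submitters' processing notes name the mm9 build, BWA, Bowtie and RSEM, and their versions are not given in the sources used here. The authors deposited, for each gene and library, an expected count estimated by RSEM, not normalized, and an FPKM scaled for length and library total. Listed gene length, also deposited by the authors, was used for the length comparison of Fcgr2b. Genes not listed in a library were taken as 0. Of 16742 Gene IDs, 16698 matched a symbol in the RefSeq table of GRCm38.p6, used for names and neighbours. Since the builds differ, coordinates of printed promoters belong to GRCm38.p6 and not to the deposited values.

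Following the study's methods, each pair of libraries was compared on rounded counts by an exact Poisson test conditional on their sum (scipy 1.17.1), Benjamini-Hochberg adjusted over every gene listed in either, with a false discovery rate of 0.001 and an absolute log2 FPKM ratio of 1. With 1 library per group, edgeR's quasi-likelihood test could not be fitted. Ratio intervals are exact conditional binomial intervals, and FPKM intervals are exact Poisson intervals of the count. Depth was 5488778, 5571409 and 5129662 counts for control, TR1 and TR9, so 3 counts were about 0.538 to 0.585 CPM. Folds against a library at 0 were computed against 3 counts.

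The 6 genes and all lists were chosen with earlier results of these data known. Named genes were the 6 members, pathway genes called in the same direction in both lines or called in TR9 against TR1 (values for at most 4 per list), B2m, Tyrobp, Syk, Inpp5d and Ptpn6, and the 2 nearest genes of each member. Igll1, Vpreb1, Kit, Cd34, S100a8, S100a9, Camp, Ngp and the control count of Cd79b were added after their values were seen, and some genes that the rule names are not reported here. As alternatives, FPKM were floored at 0.001 or given a pseudocount of 1, and the others were minimums of 1 FPKM or 10 counts, TMM, median-of-ratios (DESeq2 1.42.0), upper quartile and TPM scaling, CPM, the Audic-Claverie test, edgeR 4.0.16 exact tests (R 4.3.3) with assumed variation of 0.2 or 0.4, a false discovery rate of 0.05 and an absolute log2 ratio of 2. The steps were tested on simulated data.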

Additional observations from a re-analysis of the deposited data

Results flagged for a closer look

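Inppl1, which encodes the phosphatase SHIP2, stood apart because it was called in opposite directions in the leukemia lines. Counts of 42, 10 and 115 were listed for the control, TR1 and TR9 libraries. Its log2 ratio over the shared control library was -2.10 (-3.26 to -1.09) in TR1 and 1.53 (1.01 to 2.08) in TR9. The direct comparison of TR9 with TR1 gave 3.64 (2.71 to 4.73) and was called, but it compares 1 library with 1 library, and the difference between the lines was not tested across mice.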

How the results depend on the processing

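Of 165 single values recomputed under the alternatives, 162 neither reversed in direction nor changed a call. The other 3 were the log2 ratio of Fcgr2b in TR9 against TR1. Ratios were recomputed only with the other floor, the pseudocount, the minimums, the scalings and CPM, and the Fcgr2b share with other ways of computing it. The other tests and thresholds were not among them, so this agreement does not cover the calls lost there, which are given below. Some ratios of Fcgr1 and Fcgr4, not called under any alternative, did cross an absolute value of 1. With the pseudocount, Fcgr1 over control went from 1.36 to 0.49 in both lines, and Fcgr4 in TR1 from 1.78 to 0.93. With TMM scaling, Fcgr4 in TR9 over control went from 0.90 to 1.01. Of 84 counts of called genes, 66 were equal or within 1.5 times the count reported, 15 were smaller and 3 larger by more. None reversed. Assuming a biological variation of 0.2 in edgeR's exact test left 2 of the 4 receptor genes called in TR1 against control (Fcgr2b and Fcgrt), as did an absolute log2 ratio of 2. It left 0 of 1 in TR9 against TR1. Assuming 0.4 left 0 of the 4 in TR1, 0 of 1 in TR9 and 0 of 1 in TR9 against TR1. TMM, median-of-ratios and upper quartile scaling gave 2 called receptor genes in TR9 against TR1 instead of 1, adding Fcgr2b, at -1.09, -1.08 and -1.06. Pathway genes called in TR1 went from 22 to 14 with assumed variation of 0.2, to 5 with 0.4 and to 14 with an absolute log2 ratio of 2. In TR9 they went from 18 to 10, 4 and 10, and in TR9 against TR1 from 13 to 7, 0 and 5. Under the other alternatives they were 20 to 25, 16 to 19 and 12 to 13. The assumed variation is not an estimate from these data, which have no replicates. No paired analysis was possible because each group had 1 library, and no library could be left out. Depth limits Fcgr1, Fcgr4 and the TR1 level of Fcgrt, and the division of reads limits Fcgr2b and Fcgr3.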
